A study of Homo sapiens with 30 samples.

Results

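Messenger RNA of 10 genes of the spindle assembly checkpoint and the kinetochore was followed across 30 bead arrays of U2OS cells, a human osteosarcoma line. The genes were BUB1, BUB1B, BUB3, MAD2L1, TTK, CDC20, ZWINT, NDC80, NUF2 and SPC25. Every probe whose platform symbol was one of these names was taken, which gave 19 of the 48802 probes on the array and 10 of the 18665 genes that had a probe with a single symbol. The cells carried a retrovirus (pSIREN) expressing a short hairpin RNA, and RNA was taken 4 h after 5 Gy of caesium gamma radiation or mock irradiation, which followed infection by 2 days. The first experiment held 8 groups of 3 arrays: NFBD1 shRNA b together with p53 shRNA, p53 shRNA alone, NFBD1 shRNA b alone and a negative control shRNA, each at 5 Gy and at 0 Gy. The second experiment held 2 groups of 3 arrays at 0 Gy, cells with a different NFBD1 hairpin (pSIREN NFBD1a, called NFBD1 shRNA a here) and cells with their own control shRNA. NFBD1 is the protein product of MDC1, a mediator that binds damaged chromatin, and the study asked what its depletion does to gene expression with and without radiation and with and without p53. The hairpins act in whole infected cultures, so each array averages over all cells of a dish and all phases of the cell cycle.

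The spindle assembly checkpoint holds a cell in metaphase until every kinetochore is attached to microtubules. The kinases TTK and BUB1 act at unattached kinetochores, where MAD2L1, BUB1B and BUB3 are assembled with CDC20 into an inhibitor of the anaphase-promoting complex, the ubiquitin ligase that CDC20 otherwise activates. NDC80, NUF2 and SPC25 are subunits of the complex that binds the microtubule, and ZWINT links the outer kinetochore to the complex that recruits dynein. Many of these genes are transcribed mainly in late S phase, G2 and mitosis, and in such genes a short promoter element called the CHR (cell cycle genes homology region) is known as a binding site of the DREAM and MMB complexes, often beside CCAAT boxes that bind NF-Y.

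The promoters are shown because the elements named in that background could be read directly from RefSeq sequence (GRCh38.p14, 250 bases before to 50 bases after the annotated start). An entry was found for 8 of the 10 genes, and TTK and BUB3 are named only. For ZWINT, which had 2 entries, the first was used. The capitals mark TTTGAA or TTCGAA on either strand (TTCAAA is the first of them read on the other strand) and, in the longer stretches, CCAAT.
BUB1: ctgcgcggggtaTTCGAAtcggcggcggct
BUB1B: gggaccgttaaaTTTGAAacttggcggcta
MAD2L1: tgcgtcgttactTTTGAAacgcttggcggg
NDC80: ccggcggagaatTTCAAATTCGAAcggctt
NUF2: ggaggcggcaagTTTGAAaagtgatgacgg
CDC20: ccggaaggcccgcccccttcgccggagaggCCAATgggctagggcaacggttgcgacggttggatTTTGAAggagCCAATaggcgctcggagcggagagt
ZWINT: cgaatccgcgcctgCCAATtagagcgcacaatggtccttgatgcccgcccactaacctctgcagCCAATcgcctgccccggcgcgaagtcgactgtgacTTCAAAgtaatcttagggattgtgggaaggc
SPC25: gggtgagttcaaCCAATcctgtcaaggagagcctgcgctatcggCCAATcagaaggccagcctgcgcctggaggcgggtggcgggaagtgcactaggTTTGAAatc
These stretches lie at chr2:110678045-110678074 (minus strand) for BUB1, chr15:40161034-40161063 (plus strand) for BUB1B, chr4:120066807-120066836 (minus strand) for MAD2L1 and chr18:2571542-2571571 (plus strand) for NDC80. Those of the remaining genes lie at chr1:163321958-163321987 (plus strand) for NUF2, chr1:43358851-43358950 (plus strand) for CDC20, chr10:56361260-56361389 (minus strand) for ZWINT and chr2:168890425-168890530 (minus strand) for SPC25.

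TTTGAA or TTCGAA, searched on both strands, was present in 8 of the 8 promoters, against 16.4% of the 35116 promoters in the table. Within 100 bases before to 50 bases after the start it was again present in 8 of 8, against 7.37% of all promoters. The element of NDC80 was doubled, TTCAAA and TTCGAA standing end to end across the annotated start. CCAAT on either strand was present in 5 of the 8 (BUB1, MAD2L1, CDC20, ZWINT and SPC25), against 34.6% of all promoters, and both elements together in 5 of 8, against 6.38%. In the printed stretches of ZWINT and SPC25 a pair of CCAAT boxes stood upstream of the TTCAAA or TTTGAA. In that of CDC20 the TTTGAA lay between its CCAAT boxes. Outside these stretches SPC25 had a further TTTGAA (bases -247 to -242 from the start) and CDC20 a TTCAAA (-178 to -173). Both lay upstream of the CCAAT boxes of their gene. A match of letters describes the sequence and does not show that a factor binds there.

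All 19 probes had a detection p under 0.01 on at least 3 arrays of the first experiment, and 16 of them on all 24. In the second experiment 17 of 19 passed, a BUB3 and a NUF2 probe being the ones left out. Each gene was read from its brightest kept probe, which was detected on every array for all 10 genes, and values are normalized log2 intensities. Across the 30 arrays 34.1% to 40.3% of all probes were detected. MDC1, the gene targeted by the NFBD1 hairpins, changed in log2 intensity by -1.42 ± 0.24 (SE) with NFBD1 shRNA b at 0 Gy (limma, adjusted p = 0.00303) and by -2.41 ± 0.08 with NFBD1 shRNA a (adjusted p = 6.43e-07). CDKN1A, the p53 target that encodes p21, rose by 1.38 ± 0.09 after irradiation over the 4 shRNA treatments (adjusted p = 9.71e-10) and changed by -1.26 ± 0.18 with p53 shRNA at 0 Gy (adjusted p = 0.00134). The mRNA of p53 was not analysed here. Of the 8 bone and mesenchyme markers, 7 were kept (RUNX2, SPARC, COL1A1, TWIST1, ALPL, SPP1 and VIM, but not COL1A2). Of 5 blood, 5 epithelial and 4 neural markers, 2, 4 and 1 were kept in the first experiment, the epithelial ones being EPCAM, CDH1, KRT8 and KRT18. None of these kept markers was called after irradiation, while some were called with NFBD1 shRNA a, as given beside that result.

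Irradiation lowered 5 of the 10 genes when the 4 shRNA treatments were averaged (12 arrays at 5 Gy and 12 at 0 Gy): TTK, NDC80, BUB1, NUF2 and CDC20. The falls were 1.57-fold for TTK, 1.42-fold for NDC80, 1.40-fold for BUB1, 1.23-fold for NUF2 and 1.22-fold for CDC20. None of the 10 was called higher, and BUB1B, MAD2L1, BUB3, ZWINT and SPC25 did not pass the test. Of all 12419 genes tested 1.29% were called lower and 0.515% higher by the same rule, a limma fit with Benjamini-Hochberg adjustment over all genes and an adjusted p under 0.05. The change was below 0 for 9 of the 10 genes, against 48.4% of all genes, and the median change of the 10 was -0.29 on the log2 scale, against 0 for all genes. The labels do not say whether the 3 replicates of a group came from separate cultures, so the p-values measure the spread between these samples, and the number of arrays limits their precision. In such bulk samples fewer cells in the phases that express these genes and less RNA in each of those cells cannot be told apart.

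**Figure D1:**
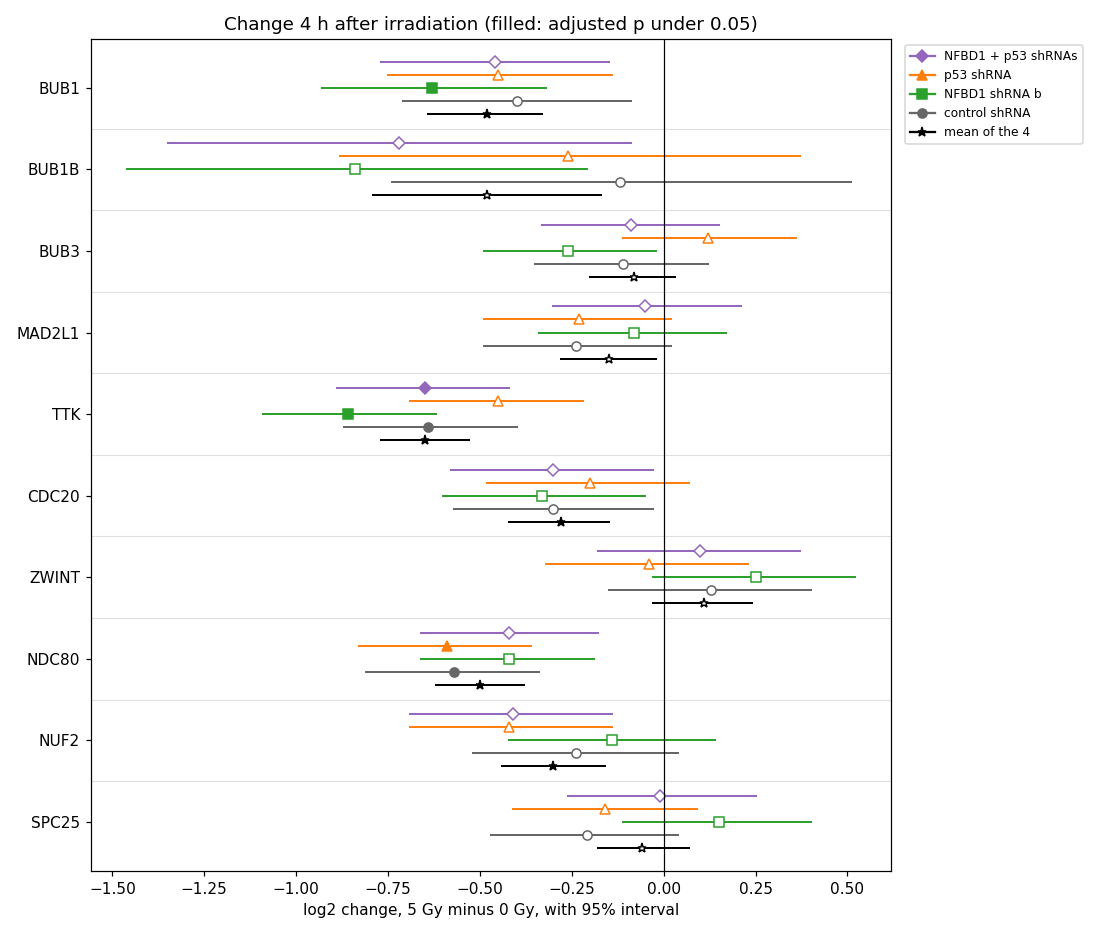
Change in log2 intensity 4 h after irradiation (5 Gy minus 0 Gy, horizontal axis) for each gene (vertical axis) with each shRNA treatment and for the mean of the 4, with 95% intervals and filled symbols where the adjusted p was under 0.05. The mean change lies to the left of 0 for every gene but ZWINT, with TTK farthest left at -0.65.

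Among the checkpoint kinases, TTK, also called MPS1, which starts checkpoint signalling by phosphorylating KNL1, had the largest fall of the 10 genes. Its log2 intensity was 9.44, 9.35 and 9.37 at 5 Gy in cells with both shRNAs, against 9.94, 10.11 and 10.06 at 0 Gy. With p53 shRNA it was 9.45, 9.53 and 9.49 at 5 Gy, against 9.86, 9.87 and 10.10 at 0 Gy. Every irradiated array of these groups lay below every unirradiated one. With NFBD1 shRNA b it was 9.0, 9.26 and 9.36 at 5 Gy, against 9.95, 10.00 and 10.24 at 0 Gy. With control shRNA it was 9.15, 9.28 and 9.28 at 5 Gy, against 9.74, 9.96 and 9.94 at 0 Gy. The doses did not overlap in these groups either. TTK fell by 0.65 ± 0.06 (SE) over the 4 treatments (limma, adjusted p = 6.86e-08), by 0.65 with both shRNAs (adjusted p = 0.00638), by 0.86 with NFBD1 shRNA b (adjusted p = 0.000128) and by 0.64 with control shRNA (adjusted p = 0.00458). With p53 shRNA its change of -0.45 ± 0.11 had an adjusted p of 0.155, which became 0.0332 with the replicate number as a block and 0.024 with the chip as a block. The call with both shRNAs was lost without the second array at 0 Gy (adjusted p = 0.0752) or the second at 5 Gy (0.0544).

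BUB1, the kinase that marks the inner centromere by phosphorylating histone H2A and recruits BUB1B to the kinetochore, fell by 0.48 ± 0.07 over the 4 treatments (adjusted p = 0.000256). With NFBD1 shRNA b its log2 intensity was 9.67, 10.03 and 9.85 at 5 Gy, against 10.52, 10.64 and 10.27 at 0 Gy. The doses did not overlap, and the change of -0.63 ± 0.15 was the single one of the 4 that was called (adjusted p = 0.0452). That call was lost without the first or the second array at 0 Gy (adjusted p = 0.139 and 0.243) and without the first or the third at 5 Gy (0.174 and 0.0994). In the other treatments the changes were similar in size but not called. They were -0.46 with both shRNAs, -0.45 with p53 shRNA and -0.40 with control shRNA, each ± 0.15, with adjusted p from 0.678 to 0.763 and no overlap between doses.

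BUB1B, the BUBR1 protein of the inhibitor complex, was dim and its arrays were widely spread. Its log2 intensity at 0 Gy ranged between 6.08 and 7.26 within the 3 arrays with p53 shRNA alone. With NFBD1 shRNA b it was 5.87, 6.28 and 5.46 at 5 Gy, against 6.33, 7.01 and 6.78 at 0 Gy. These arrays did not overlap, yet the change of -0.84 ± 0.30 had an adjusted p of 0.273, and the SE of 0.30 was the largest of the 10 genes. Over the 4 treatments its change of -0.48 ± 0.15 equalled that of BUB1 in size but not in precision (adjusted p = 0.154, or 0.0483 with the replicate number as a block). With control shRNA the change was -0.12, with an interval between -0.74 and 0.51.

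NDC80, the microtubule-binding subunit for which the complex is named, fell by 0.50 ± 0.06 over the 4 treatments (adjusted p = 3.99e-06). Its log2 intensity with p53 shRNA was 9.13, 9.19 and 9.32 at 5 Gy, against 9.79, 9.64 and 9.99 at 0 Gy. With control shRNA it was 9.41, 9.30 and 9.04 at 5 Gy, against 9.73, 9.89 and 9.85 at 0 Gy. In both treatments all irradiated arrays were lower than all unirradiated ones, and the changes of -0.59 (adjusted p = 0.0174) and -0.57 (adjusted p = 0.012), each ± 0.11, were called. With both shRNAs the values were 9.35, 9.24 and 9.36 at 5 Gy, against 9.60, 9.76 and 9.84 at 0 Gy. With NFBD1 shRNA b they were 9.32, 9.44 and 9.46 at 5 Gy, against 9.81, 9.81 and 9.86 at 0 Gy. These groups did not overlap either, and both changes were -0.42 ± 0.11, with adjusted p of 0.321 with both shRNAs and 0.107 with NFBD1 shRNA b, the second being 0.0322 with the chip as a block. The call with control shRNA was lost without replicate 2 (adjusted p = 0.105) or replicate 3 (0.0773) at 0 Gy or replicate 3 at 5 Gy (0.149). That with p53 shRNA was lost without replicate 1 (0.0743) or 3 (0.163) at 0 Gy or replicate 1 (0.123) or 2 (0.114) at 5 Gy.

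NUF2, the partner that forms a coiled-coil dimer with NDC80, fell by 0.30 ± 0.07 over the 4 treatments (adjusted p = 0.0151). With both shRNAs its log2 intensity was 7.90, 7.85 and 7.65 at 5 Gy, against 8.34, 8.27 and 8.03 at 0 Gy. With p53 shRNA it was 8.02, 7.91 and 7.64 at 5 Gy, against 8.18, 8.43 and 8.21 at 0 Gy. No array overlapped between doses in these treatments, where the changes of -0.41 and -0.42 (each ± 0.13) were not called singly (adjusted p = 0.712 and 0.637). With NFBD1 shRNA b the change was -0.14 ± 0.13 and the doses overlapped. A second NUF2 probe gave -0.45 ± 0.09 over the 4 treatments (adjusted p = 0.00431 over all kept probes). The last of the 3 NUF2 probes gave -0.08 ± 0.10, but it was dim, at a mean of 4.87, and detected on 8 of 24 arrays.

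SPC25, a subunit at the other end of the same complex, which anchors it to the inner kinetochore, did not pass the test. Its change over the 4 treatments was -0.06 ± 0.06 (adjusted p = 0.92), with an interval between -0.18 and 0.07. With NFBD1 shRNA b its log2 intensity was 10.09, 10.20 and 10.20 at 5 Gy, against 9.86, 10.05 and 10.13 at 0 Gy. With control shRNA it was 9.87, 9.86 and 9.51 at 5 Gy, against 9.79, 10.00 and 10.09 at 0 Gy. The doses overlapped in both. A second SPC25 probe gave 0.13 ± 0.16.

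CDC20, the activator of the anaphase-promoting complex that the checkpoint inhibits, fell by 0.28 ± 0.07 over the 4 treatments (adjusted p = 0.0214), although in no single treatment was it called. With control shRNA its log2 intensity was 13.07, 12.97 and 12.92 at 5 Gy, against 13.18, 13.29 and 13.39 at 0 Gy. The doses were apart there and with both shRNAs, but with NFBD1 shRNA b the first irradiated array, at 13.18, lay within the unirradiated range. The changes ran between -0.33 with NFBD1 shRNA b and -0.20 with p53 shRNA. Without the second array with both shRNAs at 0 Gy the adjusted p over the 4 treatments was 0.0505.

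The remaining members moved little. MAD2L1, whose closed form binds CDC20, changed by -0.15 ± 0.06 over the 4 treatments (adjusted p = 0.412, interval -0.28 to -0.02). BUB3, the scaffold that carries BUB1 and BUB1B to phosphorylated KNL1, changed by -0.08 ± 0.06 (adjusted p = 0.775, interval -0.20 to 0.03). Its 3 other probes gave values between -0.15 and 0.11. ZWINT was the single member with a change above 0, at 0.11 ± 0.07 (adjusted p = 0.736, interval -0.03 to 0.24), and its other probes gave -0.04 and 0.07. The interval of TTK, -0.77 to -0.53, did not overlap those of these 3 genes.

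**Figure D2:**
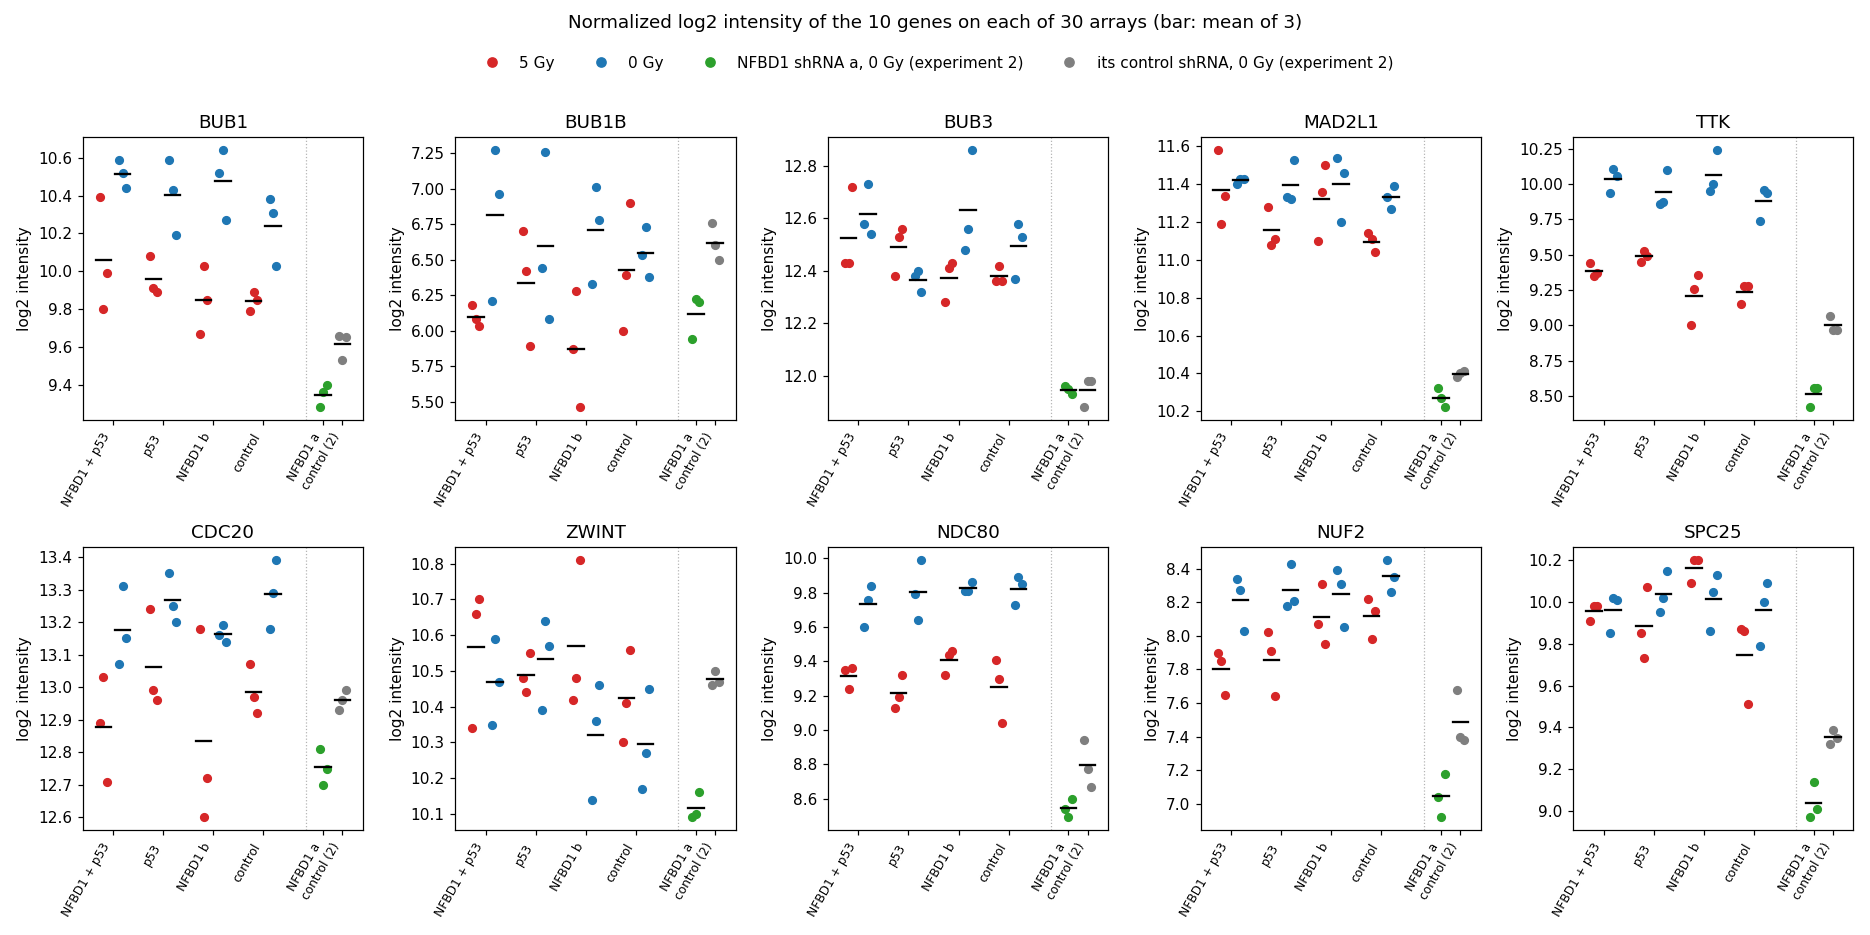
Normalized log2 intensity (vertical axis) of each gene on each of the 30 arrays by group (horizontal axis), with bars at the means of 3 arrays, and the second experiment, normalized separately, to the right of the dotted line. For TTK and NDC80 the irradiated arrays (red) lie below the unirradiated ones (blue) in all 4 shRNA treatments, whereas those of ZWINT and SPC25 are mixed.

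Counted by treatment, irradiation lowered 1 of the 10 genes with both shRNAs (TTK, against 0.193% of all genes), 1 with p53 shRNA (NDC80, against 0.225%), 2 with NFBD1 shRNA b (TTK and BUB1, against 0.523%) and 2 with control shRNA (TTK and NDC80, against 0.378%). The arrays of both doses were fully apart in the lower direction for 6 members with both shRNAs (4.31% of all genes), 5 with p53 shRNA (3.44%), 5 with NFBD1 shRNA b (8.98%) and 6 with control shRNA (4.97%). No member was apart in the higher direction, in which 3.45% of all genes were with both shRNAs, 4.85% with p53 shRNA, 5.33% with NFBD1 shRNA b and 3.61% with control shRNA. TTK was called in 3 of the 4 treatments, NDC80 in 2, BUB1 in 1 and the other 7 members in none, and no member was called in all 4, as 19 genes of the whole table were. When each comparison was fitted with its own 6 arrays alone, no member was called in any single treatment.

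Both doses of the same shRNA and replicate always lay on the same chip, which gave 12 pairs of arrays within chips. The 5 Gy array always took the position just after its 0 Gy partner, so dose and position within a pair cannot be told apart. TTK, NDC80 and BUB1 were lower at 5 Gy in 12 of 12 pairs. The differences ran between -0.94 and -0.34 for TTK, between -0.81 and -0.26 for NDC80 and between -0.86 and -0.19 for BUB1. CDC20 and NUF2 were lower in 11 pairs, BUB1B in 10, MAD2L1 in 9, BUB3 in 8, SPC25 in 7 and ZWINT in 3. The median difference was lowest for TTK, at -0.67, and highest for ZWINT, at 0.11. These pairs hold the same arrays as the fit, so a like order of the members is no separate check of it. The pairs of SPC25 differed by treatment, being higher at 5 Gy in 3 of 3 with NFBD1 shRNA b and lower in 3 of 3 with p53 shRNA.

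**Figure D3:**
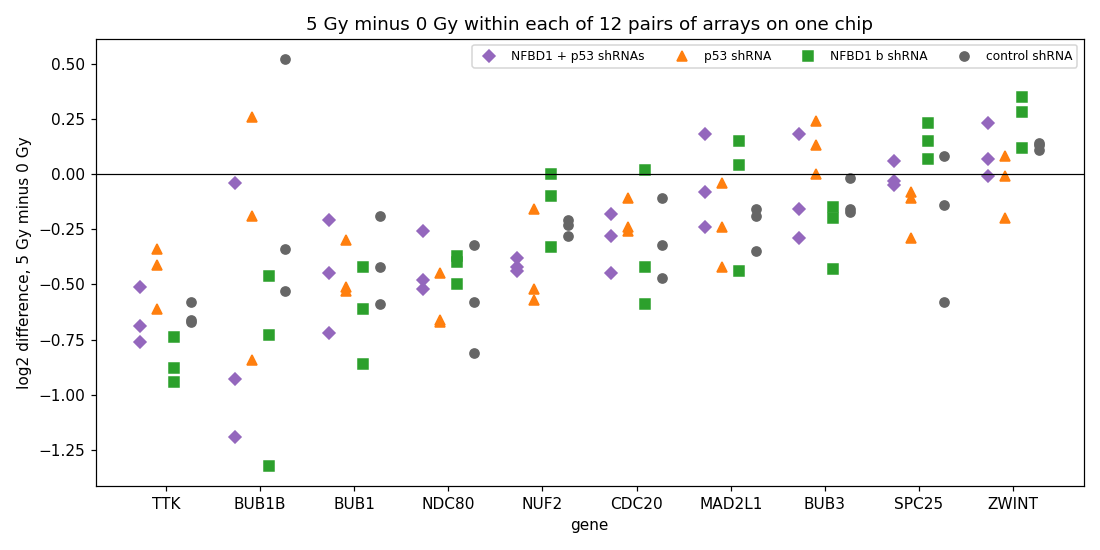
Difference in log2 intensity, 5 Gy minus 0 Gy (vertical axis), within each of the 12 pairs of arrays on the same chip, for each gene (horizontal axis), with symbols for the shRNA. All 12 points of TTK, BUB1 and NDC80 lie below 0, and 3 of the 12 points of ZWINT do.

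The radiation change was then compared between shRNA treatments. No member's change differed by p53 shRNA in the interaction test (limma, 0 of 10 at an adjusted p under 0.05 and 0 at an unadjusted p under 0.05, against 0.0161% of all genes called lower and 0% higher). The difference for TTK was 0.19 ± 0.11, a smaller fall with p53 shRNA, with an interval between -0.04 and 0.43. For NDC80 it was -0.01 ± 0.11, with an interval between -0.25 and 0.23. Equal responses were not shown, since these intervals also hold differences of a size near that of the smaller changes above. CDKN1A still rose after irradiation with p53 shRNA, by 1.24 ± 0.18 (limma, adjusted p = 0.0012), and with both shRNAs, by 1.04 ± 0.18 (adjusted p = 0.00721). Its own difference by p53 shRNA, -0.49 ± 0.18, was not called either (adjusted p = 0.998). By NFBD1 shRNA b, 0 of 10 members were called (0% of all genes in each direction) and 1 had an unadjusted p under 0.05, SPC25, with a difference of 0.26 ± 0.12 (adjusted p = 0.878). A second SPC25 probe gave -0.21 ± 0.33. The difference for TTK was -0.21 ± 0.11 (interval -0.44 to 0.03) and that for BUB1B -0.59 ± 0.30 (interval -1.22 to 0.03).

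The members were only partly alike across the 24 arrays of the first experiment, which share chips and doses. Among the 45 pairs of members Pearson's r ran between -0.49 (ZWINT with NUF2) and 0.85 (TTK with NDC80), with a median of 0.30. BUB1 with TTK had 0.79 and BUB1 with NDC80 0.69. Once the group means were removed the median over pairs was 0.02. Against the mean of the 9 others, r was 0.90 for TTK, 0.79 for NDC80 and 0.77 for BUB1, but 0.16 for SPC25 and -0.28 for ZWINT. The 5 genes outside the list whose levels were most like the mean of the members were HJURP (r = 0.949), the chaperone of centromeric histone, AURKA (0.947), a spindle pole kinase, CENPA (0.941), the centromeric histone itself, CDCA8 (0.938), the borealin protein of the chromosomal passengers, and PIF1 (0.93), a DNA helicase. Over the 4 treatments their irradiation changes were -0.85, -1.02, -1.11, -1.03 and -1.49 in that order, each larger than that of TTK. Likeness was measured over arrays of both doses together.

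Other genes of the pathway changed in part, and of all genes 1.29% were called lower and 0.515% higher after irradiation over the 4 treatments. Of 18 further checkpoint and kinetochore genes 4 were called lower after irradiation over the 4 treatments and none higher. They were CENPE, a kinetochore kinesin, at -1.08 ± 0.08 (adjusted p = 7.55e-09), SPDL1, the Spindly adaptor of dynein, at -0.37 ± 0.05 (3.58e-05), KNL1, the scaffold phosphorylated by TTK, at -0.36 ± 0.06 (0.000351), and CENPF, a large kinetochore protein, at -0.27 ± 0.07 (0.0414). The median of the 18 was -0.02, and the subunits of the MIS12 complex and SPC24 were among those not called. Of 20 genes of the anaphase-promoting complex and its regulators 4 fell: CCNB1 (cyclin B1, a substrate) at -0.88, the ubiquitin-conjugating enzyme UBE2C at -0.29, the inhibitor FBXO5 at -0.28 and the chain-elongating enzyme UBE2S at -0.27. None of the core subunits in that list was called, and its median was -0.04. Of 18 tested S-phase genes none fell and 1 rose, PCNA, the sliding clamp and a p53 target, by 0.33 ± 0.06 (adjusted p = 0.00158).

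NFBD1 shRNA b left no member called against control shRNA. The shRNA groups of the first experiment were spread unevenly over the chips, and chip 4 held no control array. With the chip as a block no member was called for any shRNA of that experiment either. At 0 Gy 0 of 10 passed in limma and 0 had an unadjusted p under 0.05, against 0.403% of all genes called lower and 0.0403% higher, and the changes ran between -0.13 for CDC20 and 0.23 for BUB1. No member's arrays were apart there, against 5.61% of all genes in the lower and 6.26% in the higher direction. At 5 Gy 0 of 10 passed and 1 had an unadjusted p under 0.05, against 1.09% of all genes lower and 0.0725% higher. That gene was SPC25, with log2 intensities of 10.09, 10.20 and 10.20 with NFBD1 shRNA b and of 9.87, 9.86 and 9.51 with control shRNA. All 3 hairpin arrays were above all 3 control arrays, and the change of 0.42 ± 0.12 had an adjusted p of 0.129. A second SPC25 probe gave 0.23 ± 0.33. SPC25 was the single member whose arrays were apart, against 5.25% of all genes in that direction and 7.29% in the lower. Averaged over p53 shRNA and dose 0 of 10 passed, with 2 at an unadjusted p under 0.05, MAD2L1 at 0.13 ± 0.06 and CDC20 at -0.14 ± 0.07, against 3.87% of all genes lower and 1.8% higher. A second MAD2L1 probe gave -0.05 ± 0.09. For TTK that average was 0.03 ± 0.06, with an interval between -0.08 and 0.15.

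With p53 shRNA 0 of 10 members passed at 0 Gy in limma (0 at an unadjusted p under 0.05, against 0.322% of all genes lower and 0.00805% higher), and none had arrays apart (4.86% of all genes lower, 3.51% higher). At 5 Gy 0 of 10 passed, with 1 at an unadjusted p under 0.05, against 0.604% lower and 0.0966% higher. That was TTK, at 9.45, 9.53 and 9.49 with p53 shRNA and 9.15, 9.28 and 9.28 with control shRNA, a change of 0.25 ± 0.11 (adjusted p = 0.577). It was the single member with arrays apart in the higher direction (8.25% of all genes), and none was apart in the lower (6.27%). Averaged over NFBD1 shRNA and dose 0 of 10 passed, with 1 at an unadjusted p under 0.05, against 2.36% lower and 1.12% higher. That was NUF2, at -0.17 ± 0.07 (adjusted p = 0.195), while its other probes gave 0.05 ± 0.09 and 0.07 ± 0.10. The last of these probes was detected on 8 of 24 arrays. Over the same average 1 of the 18 further checkpoint and kinetochore genes was called lower, CENPE, at -0.30 ± 0.08 (adjusted p = 0.0397).

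With both shRNAs against control shRNA 0 of 10 members passed at 0 Gy (limma, 0 at an unadjusted p under 0.05, against 0.878% of all genes lower and 0.0483% higher). BUB1 and MAD2L1, 2 members, had arrays apart in the higher direction, against 8.33% of all genes, and none in the lower, against 8.6%. The change of BUB1 was 0.28 ± 0.15 (interval -0.03 to 0.58) and that of MAD2L1 0.09 ± 0.12 (interval -0.17 to 0.34). A second MAD2L1 probe gave -0.31 ± 0.17. At 5 Gy 0 of 10 passed, with 2 at an unadjusted p under 0.05, against 1.23% lower and 0.209% higher. NUF2 had 7.90, 7.85 and 7.65 with both shRNAs and 8.22, 7.98 and 8.15 with control shRNA, a change of -0.31 ± 0.13 (adjusted p = 0.364). Its other probes gave 0.02 ± 0.17 and 0.18 ± 0.19, the last of them detected on 8 of 24 arrays. MAD2L1 had 11.58, 11.19 and 11.34 with both shRNAs and 11.14, 11.11 and 11.04 with control shRNA, a change of 0.27 ± 0.12 (adjusted p = 0.406). The arrays of NUF2 were apart in the lower direction and those of MAD2L1, BUB3, TTK and SPC25 in the higher, 1 and 4 members, against 7.44% and 7.23% of all genes.

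NFBD1 shRNA a, in unirradiated cells of the second experiment, lowered 7 of the 10 members: TTK, BUB1B, NUF2, ZWINT, SPC25, BUB1 and CDC20. This hairpin changed many genes, 12.6% of the 11040 tested being called lower and 13.6% higher. The arrays were apart in the lower direction for 9 members (20.2% of all genes), all but BUB3, and for none in the higher (21.8%). The median change of the 10 was -0.29, against 0.01 for all genes. CDKN1A rose by 0.83 ± 0.07 in the same cells (limma, adjusted p = 4.81e-05), and its part in these changes was not tested. Markers of cell types moved too, and those called are named after their values were seen. Of the 7 kept bone and mesenchyme markers 2 were called lower, RUNX2 (log2 change -0.99) and COL1A1 (-1.07), and 2 higher, ALPL (0.90) and SPP1 (0.35). Their summed intensity, on the linear scale, was 10916 to 11770 with NFBD1 shRNA a, against 13208 to 13592 with its control. Of 4 kept epithelial markers CDH1 was higher, by 0.53, and the sum was 5047 to 5222 with the hairpin, against 5128 to 5699. Of 2 kept neural markers NEFL changed by -0.41 and SYP by 0.57, both called, with a sum of 177 to 186 with the hairpin, against 180 to 248. The 1 kept blood marker, LYZ, changed by -0.30 and was not called (adjusted p = 0.195), at 23 to 35 with the hairpin, against 30 to 42. The part of these markers in the members' changes was not tested.

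TTK had log2 intensities of 8.42, 8.56 and 8.56 with NFBD1 shRNA a, against 9.07, 8.97 and 8.97 with its control, and fell by 0.49 ± 0.07 (limma, adjusted p = 0.00109). BUB1B had 5.94, 6.22 and 6.20 with the hairpin, against 6.76, 6.60 and 6.50 with its control, a fall of 1.41-fold (adjusted p = 0.0053). On the log2 scale that was -0.50, against -0.24 with the authors' processed values (adjusted p = 0.00119). BUB1 had 9.28, 9.36 and 9.40, against 9.66, 9.53 and 9.65 with the control, a change of -0.27 ± 0.07 (adjusted p = 0.0206). The mRNA of each of these genes was thus lower on every hairpin array than on every control array. The call of BUB1 was lost without the first control array (adjusted p = 0.0553), the third control array (0.0674) or the first hairpin array (0.0778).

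In the NDC80 complex, NUF2 had 7.04, 6.92 and 7.18 with NFBD1 shRNA a, against 7.68, 7.40 and 7.38 with its control, and fell by 0.44 ± 0.10 (adjusted p = 0.011), against a change of -0.28 with the authors' processed values (adjusted p = 0.000954). SPC25 had 8.97, 9.14 and 9.01 with the hairpin, against 9.32, 9.39 and 9.35 with its control, and fell by 0.31 ± 0.07 (adjusted p = 0.00956). Both were lower without overlap. NDC80 had 8.54, 8.49 and 8.60 with the hairpin, against 8.94, 8.77 and 8.67 with its control, a change of -0.25 ± 0.08 with an adjusted p of 0.0516. The second NUF2 and SPC25 probes gave -0.23 ± 0.10 and -0.20 ± 0.09, neither called over all kept probes.

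ZWINT, which was not called after irradiation, had 10.09, 10.10 and 10.16 with NFBD1 shRNA a, against 10.46, 10.50 and 10.47 with its control. It fell by 0.36 ± 0.06 (adjusted p = 0.00266), and its other probes fell by 0.35 and 0.54 (adjusted p = 0.0422 and 0.00155 over all kept probes). CDC20 had 12.81, 12.70 and 12.75 with the hairpin, against 12.93, 12.96 and 12.99 with its control, a fall of 1.16-fold (adjusted p = 0.04). The CDC20 call was lost with the replicate number as a block (adjusted p = 0.0778) and when any single array was left out (0.0557 to 0.118). MAD2L1 changed by -0.13 ± 0.06 (adjusted p = 0.174), although its arrays were apart and its second probe gave -0.47 ± 0.14 (adjusted p = 0.0411 over all kept probes). BUB3 had 11.96, 11.95 and 11.93, against 11.88, 11.98 and 11.98 with the control, with an interval of the change between -0.15 and 0.14.

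**Figure D4:**
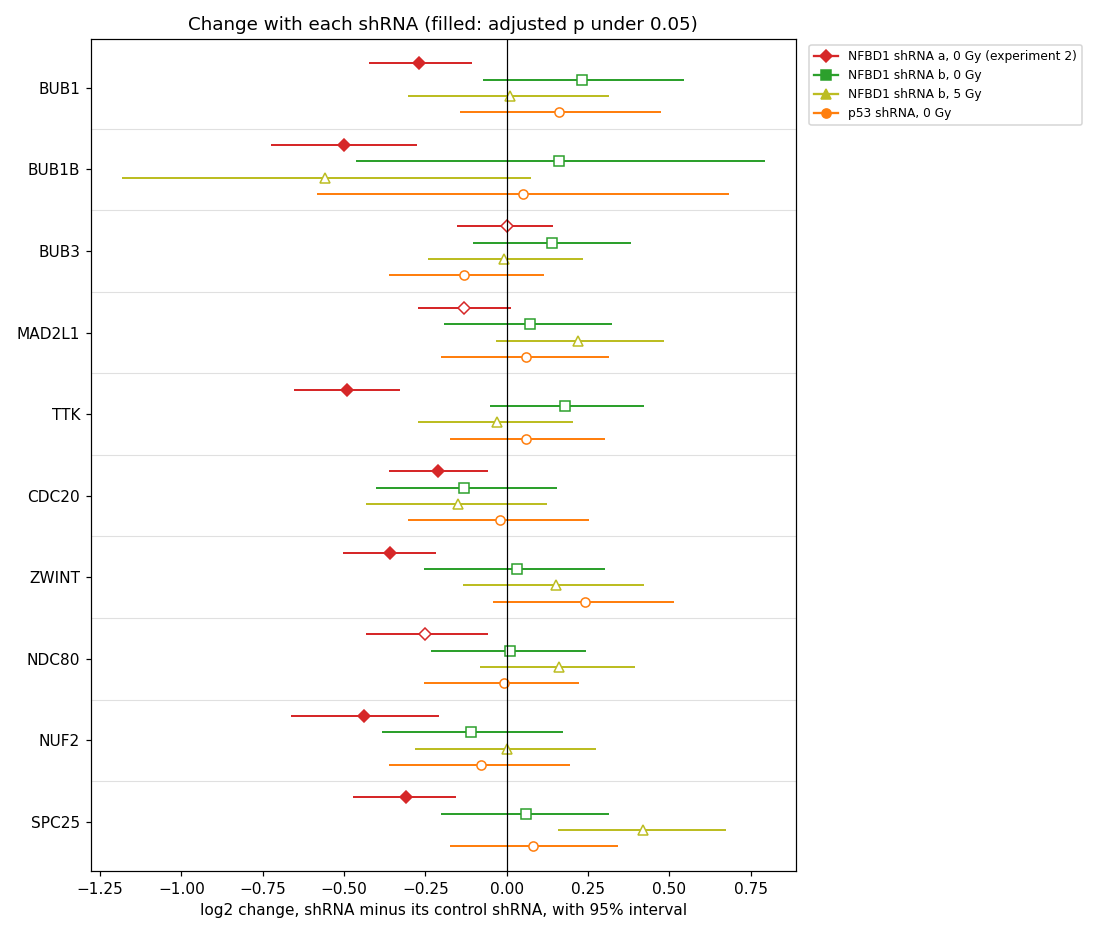
Change in log2 intensity with each shRNA against its control shRNA (horizontal axis) for each gene (vertical axis), with 95% intervals and filled symbols where the adjusted p was under 0.05. Among the 4 comparisons drawn, filled symbols occur for NFBD1 shRNA a alone, for 7 of the 10 genes, and TTK lies at -0.49 with NFBD1 shRNA a and at 0.18 with NFBD1 shRNA b at 0 Gy.

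Further genes of the pathway were also called with NFBD1 shRNA a, with which 12.6% of all genes were called lower and 13.6% higher. Of the 18 other checkpoint and kinetochore genes 11 were lower and 1 higher, with a median of -0.22. CENPE changed by -0.42, SPDL1 by -0.40 and KNL1 by -0.34, all called, and CENPF by -0.24 (adjusted p = 0.066). The gene called higher, MAD1L1, the partner of MAD2L1 at unattached kinetochores, rose by 0.49 ± 0.06 (adjusted p = 0.000662) and is named after its value was seen. Of 19 tested genes of the anaphase-promoting complex and its regulators 6 were lower and none higher. FBXO5 was called at -0.25, while CCNB1 at -0.23, UBE2C at -0.13 and UBE2S at -0.12 were not. ANAPC15, a subunit that helps turn over the checkpoint inhibitor, was lowest of that list at -0.89 ± 0.10 (adjusted p = 0.000216) and was likewise chosen after its value was seen. Of 18 tested S-phase genes 6 were lower, among them PCNA at -0.22 (adjusted p = 0.036), and none higher.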

How the data were processed

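Total RNA of 30 U2OS samples was labelled and hybridised to Illumina bead arrays, 24 in the first experiment on 4 chips and 6 in the second on 1 chip. In the second experiment the control arrays took positions A to C of the chip and those of NFBD1 shRNA a positions D to F. Hairpin and position cannot be told apart there. The deposited tables hold a bead intensity per probe that the authors had not background-corrected or normalized, judged from its values, beside a detection p-value per probe deposited by the authors. A matrix of log2 values processed by the authors served as an alternative, its scale being judged from the values. How and with which software these files were made is not given in the sources used here. A further 60 columns of 2 kinds were not used. Of 48802 probes, 27577 had 1 gene symbol, 13 several and 21212 none in the platform annotation, and 27540 matched RefSeq.

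Intensities were background-corrected and quantile-normalized within each experiment with neqc of limma 3.58.1 (R 4.3.3), offset 16. Probes with detection p under 0.01 on at least 3 arrays were kept (21568 and 17975), and each gene was read from its brightest kept probe (12419 and 11040 genes). limma's lmFit and eBayes were fitted to every group of each experiment together (residual degrees of freedom 16 and 4) for 16 comparisons, with Benjamini-Hochberg adjustment over all genes and a threshold of 0.05. The procedure was tested on simulated data. Probe sequence annotation was not checked for near-identical copies.

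The genes and gene lists were chosen with earlier results of these data known. All 10 members are named. From each further list up to 4 called genes with the largest mean irradiation change are named, and outside the lists the 5 genes with the highest correlation with the members' mean.

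Same-numbered arrays of both doses shared a chip, and their deviations from the group means correlated at 0.09 to 0.63. The deviations of NFBD1 shRNA b and control arrays of the same number correlated at 0.23 to 0.41, those of NFBD1 shRNA a and its control at -0.06 to 0.03. Alternatives were no background correction, the authors' processed values, no filter, the chip or the replicate number as a block, the arrays compared alone, the mean of a gene's probes and each array left out.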

Additional observations from a re-analysis of the deposited data

Results flagged for a closer look

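In unirradiated cells each hairpin array was set against the mean of its own control group. BUB1 and TTK were lower than that mean on every array with NFBD1 shRNA a and higher on every array with NFBD1 shRNA b. With NFBD1 shRNA b the changes were 0.23 ± 0.15 for BUB1 (interval -0.07 to 0.54) and 0.18 ± 0.11 for TTK (interval -0.05 to 0.42). Neither was called (limma, adjusted p = 0.999 for each), and the arrays of both genes overlapped those of the control. The third arrays of NFBD1 shRNA b and of its control lay on different chips. On chips 1 and 2, which held both groups, the differences were 0.14 and 0.33 for BUB1 and 0.21 and 0.04 for TTK. TTK lay between -0.58 and -0.44 on the 3 arrays with NFBD1 shRNA a and between 0.07 and 0.36 on the 3 with NFBD1 shRNA b, and the hairpins' mean changes differed by -0.67 (a minus b) on the log2 scale. BUB1 lay between -0.34 and -0.21 with NFBD1 shRNA a and between 0.02 and 0.40 with NFBD1 shRNA b, a difference of -0.50 (a minus b). The hairpins were measured in separate experiments with their own controls, normalized separately, so experiment and hairpin cannot be told apart, and the difference itself was not tested. MDC1 changed by -2.41 with NFBD1 shRNA a and by -1.42 with NFBD1 shRNA b. CDKN1A changed by 0.83 with NFBD1 shRNA a and by 0 with NFBD1 shRNA b.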

How the results depend on the processing

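The direction of every member's called change was kept under all alternatives run, and counts of called members moved as follows. Fitting the arrays compared alone gave 0 in each of the 4 single irradiation comparisons, where the fit over all groups gave 1 with both shRNAs, 1 with p53 shRNA, 2 with NFBD1 shRNA b and 2 with control shRNA. Fewer residual degrees of freedom enter that fit by construction. With p53 shRNA the count was 2 with the replicate number as a block, 2 with the chip as a block and 2 with the authors' processed values, TTK being added. The count with NFBD1 shRNA b was 3 with the authors' processed values and 3 with the chip as a block, NDC80 being added. Leaving out single arrays gave 0 to 1 members with both shRNAs, 0 to 1 with p53 shRNA, 1 to 2 with NFBD1 shRNA b, 1 to 2 with control shRNA, 4 to 5 over the 4 treatments and 5 to 6 with NFBD1 shRNA a, and 0 in each of the other 10 comparisons. The replicate block called 6 members over the 4 treatments, adding BUB1B, and 6 with NFBD1 shRNA a, where the numbers did not pair the arrays and CDC20 was lost. Apart from these counts and the one with p53 shRNA given above, the replicate block changed no count of called members. The count with NFBD1 shRNA a was 9 with the authors' processed values and 9 with the mean of a gene's probes, NDC80 and MAD2L1 being added, and 8 with no background correction, NDC80 being added. In the first experiment BUB1B, at a mean of 6.42, was the dimmest of the 10 probes used, and its changes there were the least precise. The causes of these shifts were not tested.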
